A study of Bos taurus with 96 samples.

Results

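INHBE, FST and FSTL1 are 3 of the 24616 genes in the count files, and they were chosen by identifier: INHBE is ENSBTAG00000006599, FST is ENSBTAG00000003329 and FSTL1 is ENSBTAG00000022155. INHBE encodes the inhibin beta E chain, the subunit of activin E, and it is made mainly by hepatocytes. FST encodes follistatin, a secreted protein that binds activins and myostatin and keeps them from their receptors. FSTL1 encodes follistatin-like 1, a secreted glycoprotein made largely by mesenchymal cells that is related to follistatin and to the matrix protein SPARC. Activins are dimers of inhibin beta chains that belong to the TGF-beta superfamily. They signal through pairs of serine/threonine kinase receptors to SMAD transcription factors, and activin E has been described as a liver signal that acts on adipose tissue.

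RNA was sequenced from biopsies of the liver and of the semitendinosus muscle of 16 Holstein cows, 8 of the high fertility genotype (Fert+) and 8 of the low fertility genotype (Fert-). Each cow gave both tissues at late pregnancy (LP), early lactation (EL) and mid lactation (ML), so the 96 libraries fall into 12 groups of 8. The genotypes are groups of cows picked for good or poor genetic merit for calving interval, not carriers of a single allele. All cows were kept as 1 herd of first and second parity animals, with no separate control group. LP biopsies were taken before calving and EL biopsies at about the day after it. Libraries held 14966847 to 26358063 counted read pairs in liver and 15279337 to 22018740 in muscle. Levels below are CPM, counts scaled to the library total and to the TMM factors of a tissue's 48 libraries, and changes are log2 fold changes within cows from edgeR's quasi-likelihood test, given with the standard error (SE) and the Benjamini-Hochberg adjusted p over all genes tested. A gene was called at an adjusted p under 0.05.

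Some libraries stood apart. In liver, the change of cow 426 and of cow 3434 from LP to EL ran against the mean change of the other 15 cows over the 200 genes compared (r = -0.91 and -0.60), and so did the change of cow 996 from EL to ML (r = -0.23). No cow did so in muscle. In addition, 13 libraries held 11 to 17 of 19 genes at or above a set count cutoff, where the other 83 libraries held 0 to 3. Counts of these genes below the cutoff were not considered. They are 8 liver libraries of both genotypes and 5 muscle libraries, all Fert-, and the labels give no batch for them. Liver libraries held the hepatocyte markers at a median of 155199, 122451 and 144297 summed CPM at LP, EL and ML against at most 3.53 summed CPM of skeletal muscle markers, and muscle libraries held the skeletal muscle markers at a median of 211215, 77577 and 240756. In bulk tissue, fewer cells of a type and less RNA per cell cannot be told apart.

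INHBE was found almost wholly in liver, and its level there fell by mid lactation in every cow. At LP its level in liver ran from 9.72 CPM in cow 426 to 169 CPM in cow 3847, with a median of 68.4 CPM (mean 73.6 ± 40.2 SD, n = 16). At EL it ran from 18.1 CPM in cow 3847 to 227 CPM in cow 756, with a median of 55.6 CPM (mean 71.7 ± 57.2 SD, n = 16). At ML it ran from 1.72 CPM in cow 426 to 16.5 CPM in cow 756, with a median of 8.40 CPM (mean 8.41 ± 3.91 SD, n = 16). Every ML library lay below every EL library, and below every LP library except that of cow 426.

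From EL to ML, INHBE fell by 3.04 on the log2 scale (SE 0.34, adjusted p = 3.68e-07), an 8.23-fold lower level, where 42.3% of the 13406 genes tested in liver were called and 21% were called lower. From LP to ML it fell by 3.22 on the log2 scale (SE 0.34, adjusted p = 5.60e-07), a 9.31-fold lower level, where 15.4% of genes were called and 6.56% were called lower. INHBE ranked 6 by p-value and had the ninth lowest log2 fold change in the first contrast, and it ranked 1 by p-value with the third lowest log2 fold change in the second. The level was lower at ML in 16 of 16 cows in both contrasts, and the permutation p over the signs of the 16 changes was 3.05e-05 for each, the smallest that 65536 arrangements can give. Without the 3 cows whose changes ran against the others the changes were -3.05, with 45.7% of genes called, and -3.33, with 10.2% called. The level was lower in 13 of 13 cows in both, which follows from 16 of 16. Cow 996 was picked by its change from EL to ML, where its INHBE fall was the smallest (-0.53 in log2(CPM + 1)). Cow 426, also left out, had the largest (-4.69).

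The fall was present in both genotypes. From EL to ML, the change of INHBE was -3.21 in Fert+ (SE 0.48, adjusted p = 6.88e-05) and -2.84 in Fert- (SE 0.50, adjusted p = 0.00193). These contrasts called 33.5% of genes in Fert+ (17.4% lower) and 9.62% in Fert- (4.45% lower). The difference between the genotypes in this change was -0.37 (SE 0.66, adjusted p = 0.909), with a 95% interval from -1.66 to 0.92.

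Between LP and EL, INHBE moved in opposite directions in different cows. Its log2(CPM + 1) rose by 2.71 in cow 426, the highest change, and dropped by 3.15 in cow 3847, the lowest. It was higher at EL in 6 cows and lower in 10, and the fitted change was -0.18 (SE 0.33, adjusted p = 0.783), where 2.48% of genes were called. Over the 16 cows, the INHBE level at LP and that at EL had no relation past the threshold (Pearson r = -0.33, permutation p = 0.216, and Spearman rho = -0.33, permutation p = 0.209, neither past the threshold after adjustment over the 27 relations computed).

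**Figure D1:**
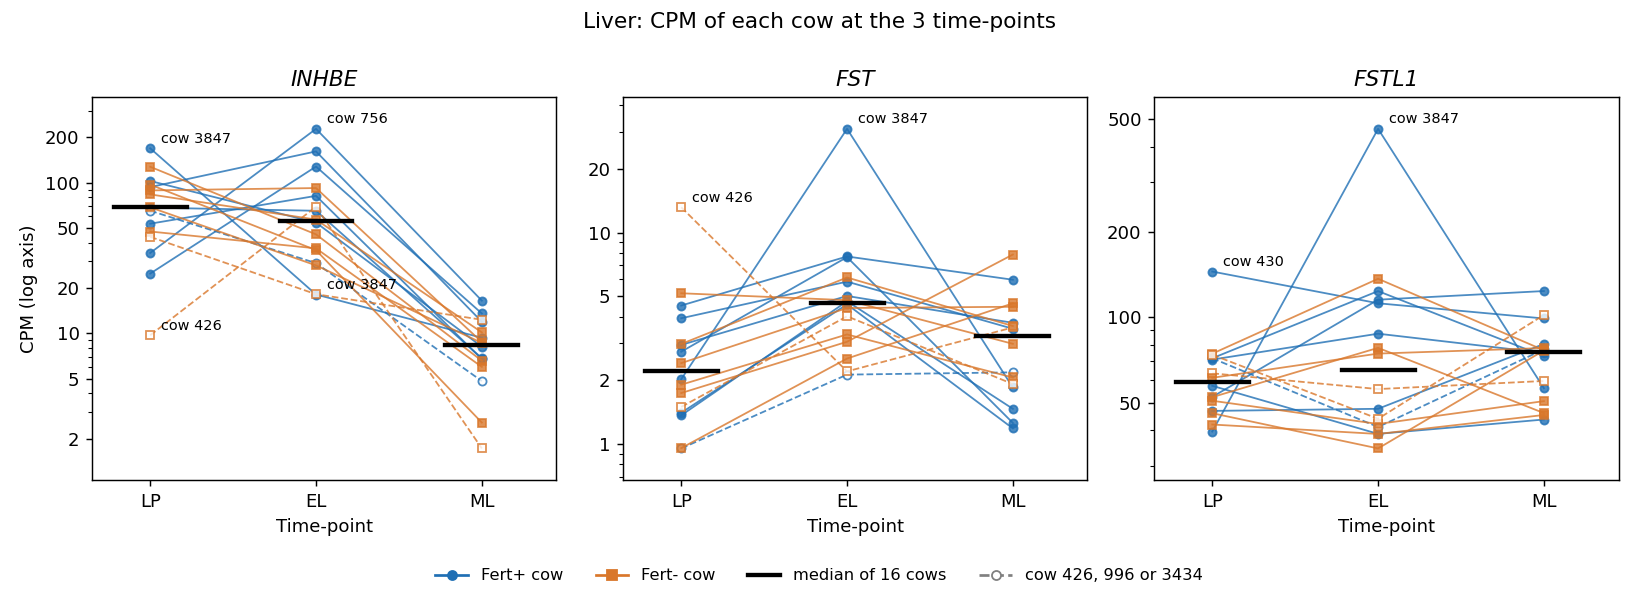
CPM of INHBE, FST and FSTL1 in liver at LP, EL and ML, on log axes, with 1 line per cow, Fert+ as circles, Fert- as squares, cows 426, 996 and 3434 dashed with open symbols, and black bars for the median of 16 cows. INHBE of every cow was lowest at ML, and the EL library of cow 3847 lay far above the others for FST and FSTL1.

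In muscle, INHBE was at the edge of detection. Of the 48 muscle libraries, 42 held 0 read pairs of INHBE and 6 held 1, of which 0 were at LP, 3 at EL and 3 at ML. Summed over the 16 libraries of a time-point, liver held 22100 INHBE read pairs at LP, 26522 at EL and 2768 at ML. Per counted read pair, INHBE at LP was at least 6932-fold higher in liver than in muscle, taking a floor of 3 read pairs over the muscle group. At EL the ratio was 7356 (95% Poisson interval 2517 to 35668) and at ML it was 812 (95% Poisson interval 278 to 3939.8), with intervals that cover counting error only. INHBE did not pass the filter on low counts in muscle, and without the filter none of its muscle changes was called (adjusted p = 0.295, 0.874 and 0.442 from LP to EL, EL to ML and LP to ML), on these 6 read pairs.

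FST was at a few CPM in both tissues, and its change at early lactation differed between liver and muscle. In liver at LP it ran from 0.952 CPM in cow 3434 to 13.2 CPM in cow 426, with a median of 2.22 CPM (mean 3.104 ± 2.96 SD, n = 16). At EL it ran from 2.13 CPM in cow 3434 to 30.95 CPM in cow 3847, with a median of 4.65 CPM (mean 6.19 ± 6.82 SD, n = 16). At ML it ran from 1.18 CPM in cow 33 to 7.87 CPM in cow 829, with a median of 3.24 CPM (mean 3.26 ± 1.83 SD, n = 16). The 3 ranges overlapped, and these levels stood on 13 to 662 read pairs per library.

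In liver the FST level was higher at EL than at LP in 14 of 16 cows, but the fitted change of 1.01 (SE 0.32, adjusted p = 0.0705) was not called, where 2.48% of genes were and 1.06% were called higher. The exceptions were cow 426, with 13.2 CPM at LP and 2.20 CPM at EL, and cow 164, whose log2(CPM + 1) dropped by 0.091. Without cows 426, 996 and 3434 the change was 1.26 (SE 0.31, adjusted p = 0.00810) and was called, with a higher level in 12 of 13 cows, 16% of genes called and 8.6% called higher. Cows 426 and 3434 were picked because their changes in this same contrast ran against the others, so leaving them out favours a call. Without the EL liver library of cow 3847 it was 0.75 (SE 0.27, adjusted p = 0.135), where 1.68% of genes were called.

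FST in liver fell from EL to ML by 0.78 on the log2 scale (SE 0.31, adjusted p = 0.0443), where 42.3% of genes were called. The level was lower in 11 of 16 cows. Without the EL library of cow 3847 the change was -0.53 (SE 0.27, adjusted p = 0.106) and was no longer called, where 40.6% of genes were, and without the 13 libraries that stood apart, of which that library is 1, it was -0.66 (adjusted p = 0.0934). FST at ML differed from LP by 0.23 (SE 0.32, adjusted p = 0.666).

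Split by genotype, FST in Fert+ liver rose by 1.61 from LP to EL (SE 0.41, adjusted p = 0.0184), in 8 of 8 cows, and fell by 1.49 from EL to ML (SE 0.41, adjusted p = 0.00730), in 7 of 8 cows. The contrasts called 8.97% and 33.5% of genes in Fert+, of which the first called 5.4% higher. In Fert- liver the changes were 0.33 (SE 0.42, adjusted p = 0.993) and -0.02 (SE 0.40, adjusted p = 0.980), where 0% and 9.62% of genes were called. The FST level was higher at EL than at LP in 6 of 8 Fert- cows and lower at ML than at EL in 4 of 8. Without cows 426, 996 and 3434 the Fert- change from LP to EL was 0.71 (adjusted p = 0.495). The test of the difference between the genotypes gave 1.28 from LP to EL (SE 0.58, adjusted p = 0.393) and -1.47 from EL to ML (SE 0.58, adjusted p = 0.626), so a difference in time course was not shown. These tests called 0% of genes by edgeR. Before adjustment 1641 and 1058 genes had a p under 0.05, and DESeq2 called 19 and 0 genes. Without the EL library of cow 3847 the Fert+ changes were 1.18 (adjusted p = 0.0714) and -1.08 (adjusted p = 0.0292), and without the 13 libraries that stood apart they were 1.12 (adjusted p = 0.272) and -1.02 (adjusted p = 0.117), neither called.

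In muscle at LP, FST ran from 0.703 CPM in cow 829 to 2.24 CPM in cow 782, with a median of 1.23 CPM (mean 1.30 ± 0.45 SD, n = 16). At EL it ran from 0.192 CPM in cow 430 to 2.78 CPM in cow 1179, with a median of 0.836 CPM (mean 0.937 ± 0.583 SD, n = 16). At ML it ran from 0.643 CPM in cow 3434 to 3.12 CPM in cow 430, with a median of 1.81 CPM (mean 1.84 ± 0.75 SD, n = 16). The ranges overlapped here as well, and the levels stood on 3 to 68 read pairs per library, which leaves a wide counting error on each.

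FST in muscle rose from EL to ML by 0.999 on the log2 scale (SE 0.21, adjusted p = 1.04e-04), a 1.999-fold higher level, in 14 of 16 cows. In this contrast 63.7% of the 12304 genes tested in muscle were called and 31.7% were called higher. From LP to EL it fell by 0.51 (SE 0.21, adjusted p = 0.0399), in 10 of 16 cows, where 58.3% of genes were called, 27.9% lower and 30.4% higher. That call was lost without the 13 libraries that stood apart (-0.32, adjusted p = 0.220) and without the cow block (-0.46, adjusted p = 0.0793). The size of the fall also rests on the TMM scaling. On library totals alone, FST had 355 of 291886377 read pairs at LP and 323 of 279116914 at EL, a much smaller fall. The level at ML was 0.49 above that at LP (SE 0.21, adjusted p = 0.135), where 9.1% of genes were called.

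By TMM-scaled CPM, FSTL1 in muscle dipped at early lactation in every cow. At LP its level in muscle ran from 31.3 CPM in cow 430 to 54.9 CPM in cow 419, with a median of 45.7 CPM (mean 45.3 ± 6.8 SD, n = 16). At EL it ran from 17.4 CPM in cow 430 to 44.1 CPM in cow 3847, with a median of 28.6 CPM (mean 29.3 ± 7.6 SD, n = 16). At ML it ran from 32.1 CPM in cow 430 to 60.5 CPM in cow 982, with a median of 41.4 CPM (mean 44.4 ± 8.0 SD, n = 16). The EL range overlapped both others between cows, but within a cow the EL library was the lowest of the 3 in each.

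FSTL1 in muscle fell from LP to EL by 0.65 on the log2 scale (SE 0.09, adjusted p = 9.36e-08), a 1.57-fold lower level, in 16 of 16 cows. From EL to ML it rose by 0.62 (SE 0.09, adjusted p = 1.58e-07), a 1.54-fold higher level, again in 16 of 16 cows. The permutation p over the signs was 3.05e-05 for each, the smallest that can be had. The changes of log2(CPM + 1) from LP to EL ran from -0.0045 in cow 3847 to -1.13 in cow 419. These changes rest on the TMM scaling. On library totals alone, FSTL1 had 12333 of 291886377 read pairs at LP, 9892 of 279116914 at EL and 11495 of 288648816 at ML. Both changes were smaller by that measure, and not every cow fell from LP to EL. Cow 982 had 701 of 16595659 read pairs at LP and 861 of 16546197 at EL. The level at ML differed from that at LP by -0.03 (SE 0.09, adjusted p = 0.860).

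Neither gene had a called difference between the genotypes in its muscle time course. The difference from LP to EL, Fert+ minus Fert-, was -0.06 for FST (95% interval -0.92 to 0.81) and 0.05 for FSTL1 (95% interval -0.29 to 0.38), where 0.0163% of genes were called. The difference from EL to ML was 0.26 for FST (95% interval -0.58 to 1.104) and -0.25 for FSTL1 (95% interval -0.59 to 0.09), where 0% of genes were called by edgeR. Before adjustment 1104 genes had a p under 0.05 in the latter, and DESeq2 called 39. By CPM, FSTL1 was lower at EL than at LP, and higher at ML than at EL, in 8 of 8 cows of each genotype.

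The muscle marker sums moved in the same libraries. The summed CPM of the 8 skeletal muscle markers, all matched to an identifier and none at 0, ran from 151754 to 242354 at LP, from 29185 to 219078 at EL and from 208365 to 279057 at ML. The 4 of 12 fibroblast and matrix markers with an identifier had a median sum of 260 CPM at LP, 149 CPM at EL and 213 CPM at ML, with none of the 4 at 0. The 3 of 5 smooth muscle and pericyte markers with an identifier had medians of 196, 144 and 227 CPM at LP, EL and ML, and the 3 of 5 adipocyte markers had 6.22, 6.04 and 15.3 CPM. The 1 of 5 endothelial markers with an identifier had medians of 65.2, 90.96 and 76.8 CPM, and the 8 hepatocyte markers summed to 2.81, 2.83 and 11.8 CPM, with a highest sum of 172 CPM at ML. The part of these lists in the levels of FST and FSTL1 was not tested.

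**Figure D2:**
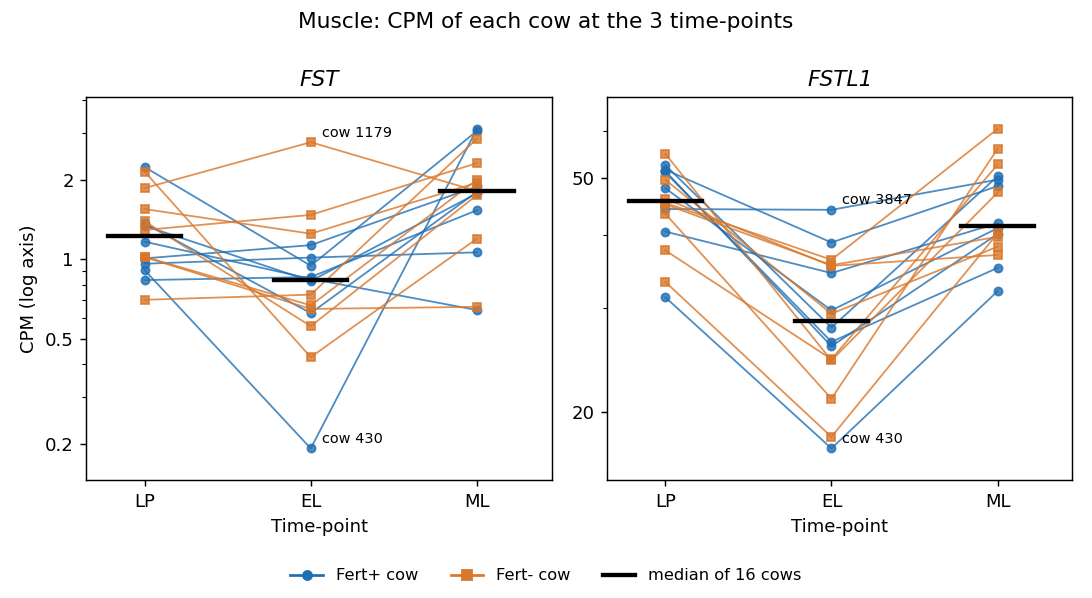
CPM of FST and FSTL1 in muscle at LP, EL and ML, on log axes, with 1 line per cow, Fert+ as circles, Fert- as squares and black bars for the median of 16 cows. FSTL1 was lowest at EL in all 16 cows, and FST was higher at ML than at EL in 14 of 16.

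In liver, FSTL1 had no called change between time-points. At LP it ran from 39.5 CPM in cow 3847 to 145 CPM in cow 430, with a median of 59.3 CPM (mean 63.7 ± 24.7 SD, n = 16). At EL it ran from 34.5 CPM in cow 829 to 462 CPM in cow 3847, with a median of 65.2 CPM (mean 95.8 ± 104 SD, n = 16). At ML it ran from 43.6 CPM in cow 33 to 124 CPM in cow 782, with a median of 75.6 CPM (mean 72.6 ± 22.4 SD, n = 16). The 3 ranges overlapped, and the EL library of cow 3847 lay far above all others.

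The fitted changes of FSTL1 in liver were 0.28 from LP to EL (SE 0.22, adjusted p = 0.473), -0.09 from EL to ML (SE 0.22, adjusted p = 0.759) and 0.19 from LP to ML (SE 0.21, adjusted p = 0.598). Their 95% intervals ran from -0.15 to 0.71, from -0.53 to 0.34 and from -0.23 to 0.61. Without the EL library of cow 3847 the first was 0.06 and the second turned to 0.15 (adjusted p of both above the threshold).

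**Figure D3:**
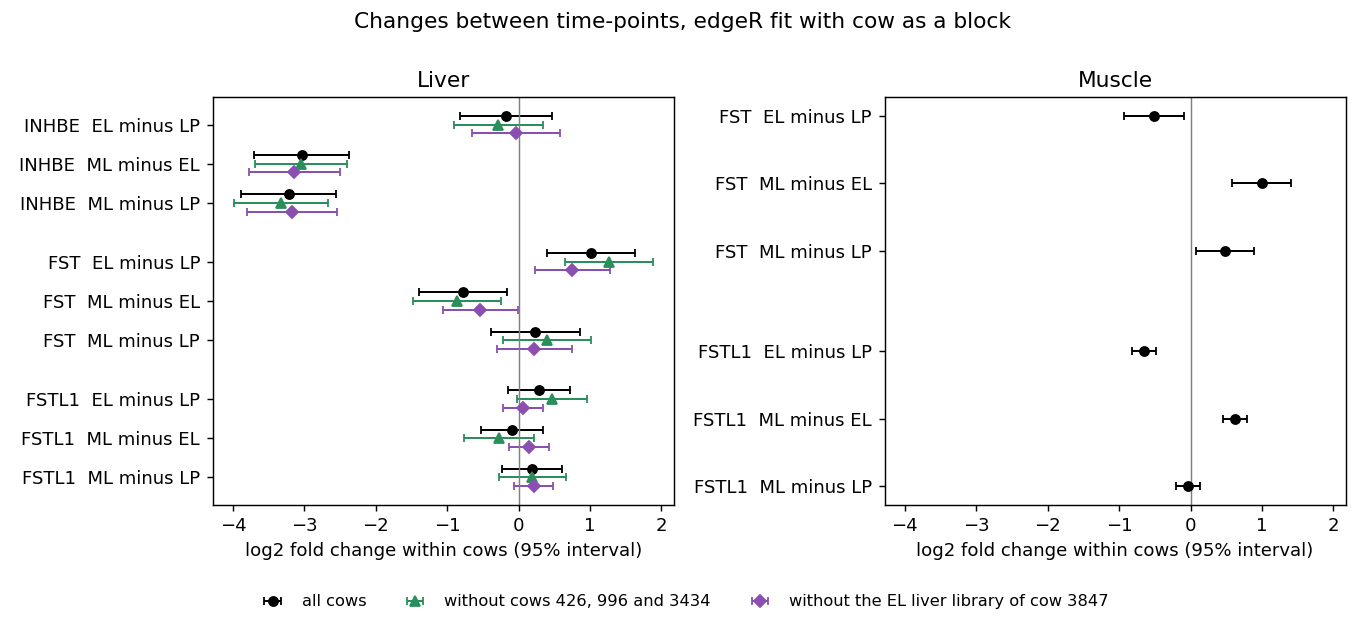
Log2 fold changes within cows of the 3 genes between time-points in liver and muscle, as the edgeR estimate with its 95% interval, for all cows (black circles) and, in liver, without cows 426, 996 and 3434 (triangles) or without the EL library of cow 3847 (diamonds). INHBE in liver had the largest falls, at -3.04 and -3.22, and FSTL1 in muscle had the narrowest intervals.

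The same gene can be compared between the tissues of a cow. FST was higher in liver than in muscle by 0.87 at LP (log2, SE 0.25, adjusted p = 0.00322), by 2.25 at EL (SE 0.28, adjusted p = 2.36e-07) and by 0.59 at ML (SE 0.21, adjusted p = 0.0138). FSTL1 was higher in liver by 0.29 at LP (SE 0.13, adjusted p = 0.0366), by 1.09 at EL (SE 0.21, adjusted p = 6.86e-05) and by 0.50 at ML (SE 0.11, adjusted p = 2.41e-04). Calls were the rule in these comparisons, at 88.8%, 86.3% and 89.2% of genes at LP, EL and ML. The FSTL1 difference at LP was not called with DESeq2-style size factors (0.26, adjusted p = 0.0656), without the filter on low counts (0.27, adjusted p = 0.0660) or without the 3 cows (0.22, adjusted p = 0.163).

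For FST and FSTL1, the change between time-points differed between the tissues in the contrasts with EL. From LP to EL the liver change exceeded the muscle change by 1.58 for FST (SE 0.40, adjusted p = 0.00182) and by 0.98 for FSTL1 (SE 0.24, adjusted p = 0.00114), where 28.7% of genes were called. From EL to ML the liver change was below the muscle change, by -1.84 for FST (SE 0.40, adjusted p = 1.35e-04) and by -0.77 for FSTL1 (SE 0.24, adjusted p = 0.00723), where 39.2% of genes were called. Without the EL liver library of cow 3847 these were 1.24 and 0.69, and -1.50 and -0.44, and each was still called. From LP to ML neither gene was called (-0.26 for FST and 0.21 for FSTL1), where 9.74% of genes were. For INHBE the difference between the tissues was not called in any of the 3 contrasts (adjusted p = 0.642, 0.438 and 0.397 from LP to EL, EL to ML and LP to ML), and no fold is given, since muscle held at most 1 read pair per library.

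The study selected these genes for a difference between genotypes in liver at EL, so the genotype values that follow are no independent evidence of one. INHBE at EL had a median of 73.4 CPM in Fert+ and 41.0 CPM in Fert- (means 95.6 ± 71.7 and 47.8 ± 24.0 SD, n = 8 each). FST had medians of 5.43 and 3.66 CPM (means 8.58 ± 9.22 and 3.80 ± 1.30 SD). FSTL1 had medians of 99.8 and 49.8 CPM (means 129 ± 139 and 63.0 ± 33.9 SD). The genotypes overlapped for all 3 genes: 6, 7 and 5 of the 8 Fert+ cows lay above the Fert- median for INHBE, FST and FSTL1, and 3, 3 and 1 lay above all 8 Fert- cows.

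**Figure D4:**
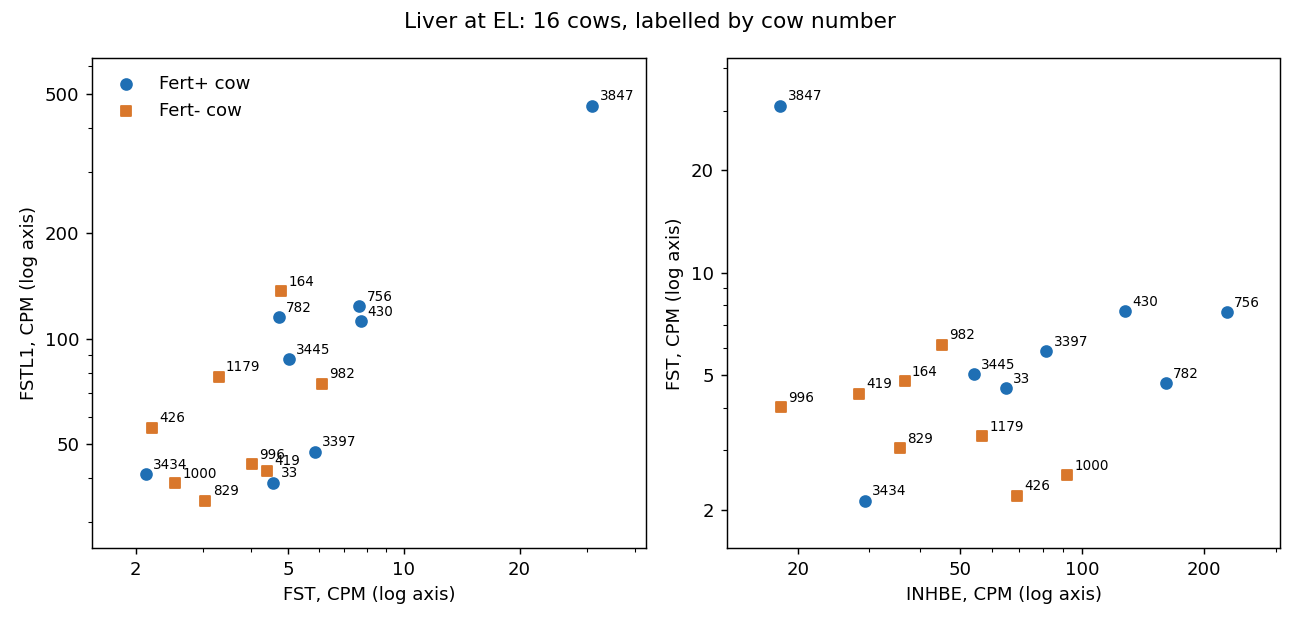
CPM of FSTL1 against FST (left) and of FST against INHBE (right) in the liver at EL, on log axes, with each of the 16 cows labelled by number, Fert+ as circles and Fert- as squares. Cow 3847 had the highest FST (30.95 CPM) and FSTL1 (462 CPM) and the lowest INHBE (18.1 CPM).

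The fitted differences at EL, Fert+ minus Fert-, were 0.999 for INHBE (log2, SE 0.45, adjusted p = 0.405), 1.17 for FST (SE 0.43, adjusted p = 0.379) and 1.02 for FSTL1 (SE 0.47, adjusted p = 0.415). None of the 13047 genes tested was called (0%), with 1530 genes at an unadjusted p under 0.05 and 6 genes called by DESeq2. The exact permutation p over the 12870 arrangements of the genotypes was 0.158, 0.0577 and 0.170 for the 3 genes. The study's methods name edgeR's common dispersion. With edgeR's exact test and 1 dispersion for all genes, the adjusted p was 0.0124 for INHBE, 0.00242 for FST and 0.00981 for FSTL1, and 2.31% of genes were called. Without cow 3847 the differences were 1.16 for INHBE, 0.51 for FST and 0.36 for FSTL1.

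At the other time-points no genotype difference of the 3 genes was called. In liver at LP the differences were 0.12 for INHBE, -0.59 for FST and 0.26 for FSTL1, and at ML they were 0.47, -0.55 and 0.24. Single cows moved the LP values: without cow 426 FST was 0.049 and INHBE -0.058, without cow 3847 INHBE was -0.16, and without cow 430 FSTL1 was 0.018. No gene was called at either time-point by edgeR (0%). Before adjustment 842 and 1640 genes had a p under 0.05, and DESeq2 called 0 and 77 genes. In muscle at LP, EL and ML they were -0.17, -0.41 and 0.03 for FST and 0.05, 0.11 and -0.14 for FSTL1, where 0%, 0.00831% and 0% of genes were called.

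FST and FSTL1 levels were compared across cows in the liver at EL, in the same libraries and for the same genes in which the study sought a genotype difference, so a relation over both genotypes is not independent of that choice. Their log2(CPM + 1) values had a Pearson r of 0.83 over the 16 cows (permutation p = 6.60e-04, adjusted p = 0.0178) and a Spearman rho of 0.71 (permutation p = 0.00285, adjusted p = 0.0769). Without cows 3847 and 3434, the farthest from the FST median, r was 0.57 (permutation p = 0.0363), and without cow 3847 alone it was 0.60 (permutation p = 0.0196), neither adjusted. Within genotypes r was 0.89 in Fert+ and 0.46 in Fert-. The size of the pooled relation thus rests partly on cow 3847. Over all 27 relations, 12 between members and 15 of a gene with itself over time, this was the 1 whose adjusted p for r was under 0.05, and no adjusted p for rho was.

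The correlations of INHBE with FST and with FSTL1 at LP were negative, and neither passed the threshold after adjustment. For INHBE and FST in liver r was -0.70 (permutation p = 0.00484, adjusted p = 0.0653) and rho was -0.36, and r was -0.21 without cows 426 and 430. For INHBE and FSTL1 r was -0.55 (permutation p = 0.0338, adjusted p = 0.284) and rho was -0.63 (permutation p = 0.0113, adjusted p = 0.102), and r was -0.58 without the same cows. In muscle at EL, FST and FSTL1 had an r of 0.50 (permutation p = 0.0466, adjusted p = 0.284) and a rho of 0.64 (permutation p = 0.00868, adjusted p = 0.102).

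The genes most like each member were sought over the 48 libraries of a tissue, which share cows, time-points and depth, as a description with no test. In liver the 5 genes most like INHBE had r from 0.80 to 0.83 and no known symbol here, and FST and FSTL1 were far down its ranking (r = -0.10 and -0.09). The genes most like FST included SDS, serine dehydratase of amino acid catabolism, with r = 0.76, or 0.66 without the EL library of cow 3847. Those most like FSTL1 were led by TNC, the matrix protein tenascin C, with r = 0.79 (0.67 without that library), and included FKBP14, a collagen folding enzyme of the endoplasmic reticulum, with r = 0.77 (0.61). FST and FSTL1 had r = 0.54 in liver, or 0.30 without that library. In muscle the genes most like FSTL1 included FN1, the matrix protein fibronectin, with r = 0.85, and FST and FSTL1 had r = 0.52.

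Of the 75 other genes of the activin pathway read here, 11 could be matched to an identifier, because symbols came mainly from the study's own tables of differing genes. None of the 14 receptors was among them. Genes matched in this way, here and in the lists below, are a selected set. Their shares called are thus not directly comparable with those over all genes. From LP to EL in liver 0 of the 10 tested were called (10 tested in liver, 9 in muscle), beside 2.48% of all genes, or 3 of 10 without cows 426, 996 and 3434, beside 16%. At an unadjusted p under 0.05 edgeR had 2888 genes in that contrast, and DESeq2 called 889. From EL to ML in liver 6 of 10 were called, 2 higher and 4 lower, where 21.3% of all genes were called higher and 21% lower. In muscle 6 of 9 were called lower and 0 higher from LP to EL, and 4 of 9 were called higher and 0 lower from EL to ML, beside the 27.9% and 31.7% of all genes called in those directions.

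Among ligands, BMP6, a bone morphogenetic protein, was near 2.6 to 2.9 CPM in liver at all 3 time-points and was not called there, with a change of -0.02 from EL to ML (SE 0.21, adjusted p = 0.952). In muscle both ligands tested fell from LP to EL and rose from EL to ML. MSTN, myostatin, the muscle growth inhibitor that follistatin binds, fell by 2.004 (SE 0.45, adjusted p = 3.33e-04) from a mean of 11.1 ± 5.3 CPM to 4.198 ± 6.82 CPM and then rose by 2.61 (SE 0.45, adjusted p = 8.29e-06) to 17.3 ± 8.9 CPM (SD, n = 16). BMP6 fell by 0.76 (SE 0.13, adjusted p = 3.82e-06) and rose by 0.59 (SE 0.13, adjusted p = 1.37e-04).

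Among binding proteins, A2M, alpha-2-macroglobulin, a plasma protease inhibitor that also binds growth factors, fell in liver from EL to ML by 1.57 (SE 0.35, adjusted p = 8.75e-04), and in muscle it was not called. Of the relatives of FSTL1, SPARC and SPOCK2, both matrix proteins with a follistatin-like domain, rose in liver from EL to ML by 0.69 (adjusted p = 0.00138) and 0.80 (adjusted p = 2.86e-04). In muscle from LP to EL, SPARC fell by 0.48 (adjusted p = 5.67e-05) and SPOCK2 by 0.85 (adjusted p = 0.0186), as FSTL1 did, but from EL to ML their changes were 0.02 and -0.43, neither called.

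SMAD7, the inhibitory SMAD, was not called in liver (0.15 from EL to ML, adjusted p = 0.447). In muscle it fell by 1.69 from LP to EL (SE 0.31, adjusted p = 2.47e-05) and rose by 1.097 from EL to ML (SE 0.31, adjusted p = 0.00307). Of the 4 SMAD target genes tested in liver, 3 fell from EL to ML, beside the 21% of all genes called lower, with a median change of -0.85 over the 4 against -0.0067 over all genes. They were HAMP, the iron hormone hepcidin, by 1.24, JUNB, an AP-1 transcription factor, by 0.97, and KLF10, a TGF-beta induced transcription factor, by 0.72. Without the EL liver library of cow 3847, 2 of 4 were called lower. The 4 are those with a symbol, mainly from the study's tables of differing genes, so these shares are not directly comparable with all genes. In muscle ID2, an inhibitor of DNA binding, fell by 0.73 from LP to EL and rose by 0.41 from EL to ML.

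**Figure D5:**
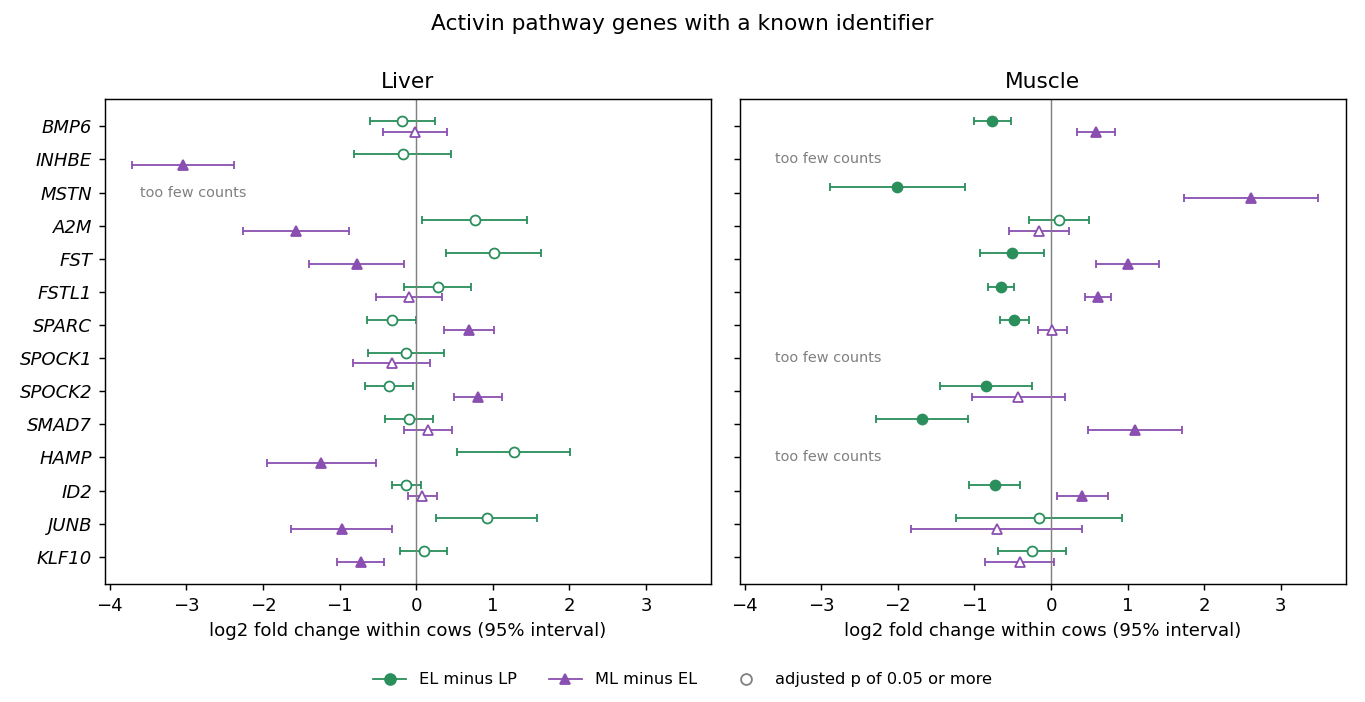
Log2 fold changes within cows, with 95% intervals, of the activin pathway genes with a known identifier, in liver and muscle from LP to EL (circles) and from EL to ML (triangles), with open symbols at an adjusted p of 0.05 or more. INHBE in liver from EL to ML and MSTN in muscle were among the largest changes, at -3.04, -2.004 and 2.61.

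Genes of the ATF4 and CHOP stress response were read because INHBE is known as a target of that response. In liver from EL to ML, where INHBE fell, 4 of 11 tested were called lower and 1 higher, beside 21% and 21.3% of all genes, with a median of -0.41. ASNS, asparagine synthetase, fell by 1.62, XBP1, a factor of the unfolded protein response, by 1.56, ATF4 itself by 0.68 and ATF5, a related factor, by 0.56, while PSAT1, an enzyme of serine synthesis, rose by 0.63. From LP to EL 0 of 11 were called, beside 2.48% of all genes, or 3 of 12 without cows 426, 996 and 3434, beside 16%. In muscle from EL to ML 5 of 11 were called higher and 3 lower, where 31.7% and 31.9% of all genes were. PHGDH and PSPH, enzymes of serine synthesis, rose by 1.84 and 1.83 and PSAT1 by 1.53, while NUPR1, a stress-induced nuclear protein, fell by 1.24.

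Of the 11 fasting, glucagon and insulin response genes tested in liver, IGF1, the growth factor made under growth hormone, fell by 1.23 from LP to EL and rose by 0.90 from EL to ML. ANGPTL4, a fasting-induced inhibitor of lipoprotein lipase, fell by 2.23 from EL to ML. The other 10 and 9 were not called, where 2.48% and 42.3% of all genes were. In muscle 5 were tested. From LP to EL 2 were called higher and 0 lower, and from EL to ML 2 were called lower and 1 higher, where 58.3% and 63.7% of all genes were called. FOXO1, a transcription factor restrained by insulin, and PDK4, which limits glucose oxidation, rose from LP to EL by 1.14 and 1.65. They then fell, with changes of -2.30 and -2.61 from EL to ML, opposite in sign to FSTL1 and MSTN. The 1 gene called higher from EL to ML moved in the same direction as FSTL1 and MSTN.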

How the data were processed

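The deposited values are read-pair counts per Ensembl gene, whole numbers that the authors made from TruSeq paired-end libraries by trimming, alignment with STAR to UMD3.1 and counting with featureCounts. Strand use in the counting is not given in the sources used here, so overlapping antisense genes cannot be told apart. Each of the 96 libraries has a file; 96 columns of whole-series tables were not used. A total of 336 pairs of libraries of 1 group were compared and none was a duplicate. The members, gene lists and tests were chosen with earlier results of these data known. Symbols were matched through the study's supplementary tables (2161 of 24616 identifiers).

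Counts were filtered with filterByExpr, scaled by TMM and fitted by edgeR 4.0.16 (quasi-likelihood, robust, R 4.3.3) on a tissue's 48 libraries with cow as a block, on both tissues of 1 time-point (32 libraries, cow as a block), on all 96 libraries with cow within tissue as a block, and on the 16 libraries of a tissue and time-point for genotype. Samples of a cow come from the same animal, and their deviations from the group means had r above 0.1 in 39 of 48 pairs in liver and 42 of 48 in muscle. CPM was set on log2(CPM + 1) for within-cow changes, with permutation p-values over signs, and for relations (100000 resamples). Alternatives were no block, RLE size factors, no filter on low counts, no robust estimation, DESeq2 1.42.0, edgeR's exact test with 1 common dispersion for genotype, 1 fit of all 48 libraries for genotype, log2(CPM + 0.1) for relations, leaving out each cow in turn, leaving out the 13 libraries that stood apart, and, added after the data were seen, leaving out cows 426, 996 and 3434 or the EL libraries of cow 3847. The scripts were tested on simulated data. Named from each list, per tissue and contrast, were up to 4 called genes with the largest absolute log2 fold change, and of the likeness ranking the 5 highest with a known symbol. A gene of the lists is not reported here. Genes that are not called or not largest were named only where they complete a list, after their values were seen. The order of levels between genes was not compared, since gene lengths were not used.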

Additional observations from a re-analysis of the deposited data

Results flagged for a closer look

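A library far from the other 7 of its group by CPM was found in 8 of 30 groups, where a rate of about 1 group in 20 gives 1.5. That rate was not checked for CPM values, and the groups share cows, so 8 against 1.5 is no test against chance. FST stood out in liver at EL in Fert+ cow 3847 (30.95 CPM, next 7.71), in liver at LP in Fert- cow 426 (13.2 CPM, next 5.16), in liver at ML in Fert- cow 829 (7.87 CPM, next 4.62), in muscle at LP in Fert+ cow 782 (2.24 CPM, next 1.37) and in muscle at EL in Fert- cow 1179 (2.78 CPM, next 1.47). FSTL1 stood out in liver at LP in Fert+ cow 430 (145 CPM, next 71.7), in liver at EL in Fert+ cow 3847 (462 CPM, next 124) and in liver at EL in Fert- cow 164 (137 CPM, next 78.0). No group of INHBE had such a library by CPM. On the low side, cow 426 had 9.72 CPM of INHBE in liver at LP, where the next lowest Fert- cow had 43.7 CPM.

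In the EL liver library of cow 3847 the 3 neutrophil markers with an identifier summed to 102 CPM, against a median of 6.52 CPM over the 16 EL liver libraries, and cow 164, whose FSTL1 stood out too, had the highest sum, 283 CPM. Hepatocyte markers in cow 3847 summed to 110587 CPM against a median of 122451, fibroblast and matrix markers to 140 CPM against 168, and adipocyte markers to 0.187 CPM against 2.03. Within the hepatocyte sum FGB was high in cow 3847, at 71358 CPM against a median of 37947, while ALB was at 25747 CPM against 56518, TF at 6668 against 12041 and TTR at 614 against 1517. APOB (686 against 2073 CPM) and AHSG (686 against 1633 CPM) were the lowest of the 16 EL liver libraries. SERPINA1 was at 4341 against 5674 CPM, while APOA1 was slightly above the median, at 487 against 458 CPM. The part of these in the FST and FSTL1 values was not tested.

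The change between time-points differed between liver and muscle by the test of the difference itself. From LP to EL it was 1.58 for FST and 0.98 for FSTL1 (liver minus muscle, log2), and from EL to ML it was -1.84 for FST and -0.77 for FSTL1. By CPM, FSTL1 in muscle moved the same way in 16 of 16 cows in both contrasts. In liver 8 of 16 cows were higher at EL than at LP and 10 of 16 higher at ML than at EL.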

How the results depend on the processing

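INHBE in liver from EL to ML and from LP to ML, FSTL1 in muscle from LP to EL and from EL to ML, FST in muscle from EL to ML, and the differences between tissues in the changes of FST and FSTL1 from LP to EL and from EL to ML kept their direction and their call under every alternative run. Every alternative scaled libraries by TMM or RLE-type factors, which assume that most genes do not change, so none of them tests that scaling. In muscle from LP to EL 58.3% of genes were called. The muscle changes with EL, and the tissue differences that use them, may depend on the scaling. With each cow left out in turn, the 2 INHBE changes ran from -3.20 to -2.85 and from -3.33 to -3.07. FST, which stood on 3 to 662 read pairs per library, changed its call as follows, and the causes were not tested.

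FST in liver from LP to EL was called by DESeq2 (1.04). It was also called without cows 426, 996 and 3434 (1.26), a choice made partly on this contrast, which favours a call. With each cow left out FST ran from 0.77 to 1.26, called in 1 of 16. Its fall in liver from EL to ML was not called without the filter (-0.79), without the 13 libraries (-0.66) or without the EL library of cow 3847 (-0.53), and with each cow left out ran from -0.95 to -0.53, called in 5 of 16. Its fall in muscle from LP to EL was not called without the cow block (-0.46), the filter (-0.50) or the 13 libraries (-0.32), and ran from -0.64 to -0.38, called in 9 of 16. FSTL1 between tissues at LP was not called with RLE size factors (0.26), without the filter (0.27) or without the 3 cows (0.22). In Fert+ liver FST was not called without the 13 libraries (1.12 from LP to EL, -1.02 from EL to ML). The genotype differences in liver at EL were called by the exact test with 1 common dispersion (INHBE 0.999, FST 1.17, FSTL1 1.02).

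Values that were not called changed sign, among them FST between genotypes in liver at LP (-0.59) and the genotype difference of FSTL1 in the liver change from EL to ML (-0.51). Without the 13 libraries, INHBE in liver from LP to EL was 0.0027, FSTL1 in liver from EL to ML was 0.088 (0.15 without the EL library of cow 3847), and FST between genotypes in muscle at ML was -0.055. Of the genotype differences in change, FSTL1 in liver from EL to ML turned to 0.19 without the 13 libraries, and from LP to ML INHBE turned to -0.11, FST to 0.089 in liver and -0.076 in muscle, and FSTL1 to 0.26. The genotype difference in the liver change from LP to ML was 0.047 for FST without the cow block and 0.0033 for FSTL1 without the 3 cows. Leaving out the 3 cows also turned INHBE and FST between genotypes in liver at LP to -0.13 and 0.084. With each cow left out, values ran from -0.18 to 0.13 for FSTL1 in liver from EL to ML, and for genotype from -0.16 to 0.30 (INHBE) and -0.77 to 0.049 (FST) in liver at LP, and from -0.11 to 0.17 (FST) in muscle at ML. Genotype differences in the LP to ML change ran from -0.10 to 0.44 for INHBE, -0.66 to 0.13 for FST and -0.17 to 0.10 for FSTL1 in liver, and from -0.017 to 0.45 for FST in muscle. In muscle they ran from LP to EL from -0.32 to 0.19 for FST and -0.043 to 0.10 for FSTL1, and from EL to ML from -0.033 to 0.45 for FST.

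The number of genes called from LP to EL in liver was 332, against 193 without the filter, 889 by DESeq2, 0 without the 13 libraries, 2144 without the 3 cows and 8 to 1468 with each cow left out. From LP to ML it was 2065 in liver, against 1366 without the 3 cows and 1344 to 2356 with each cow left out, and 1120 in muscle, against 713 without the cow block. Leaving out the cow block ended the call of FST in muscle from LP to EL and no other call of a member. No paired analysis was possible because each cow has 1 genotype, where genotypes were compared within a time-point. The main limits are the low counts of FST, the 3 cows and 13 libraries that stood apart, the EL liver library of cow 3847, which moved FST and FSTL1 values there, and the few pathway genes with a symbol. The scaling of the EL muscle libraries is a further limit.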
